A study of Saturnispora dispora and Saturnispora hagleri and Saturnispora mendoncae with 16 samples.

Results

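*Sat. silvae* (Ssil) was compared with *Sat. dispora* (Sdis), a low ECAR and a rapid ECAR yeast of the genus *Saturnispora*, by poly(A) RNA sequencing of 4 libraries per species, which are 8 of the 16 libraries of the series. ECAR is the extracellular acidification rate, the speed at which cells given glucose acidify their medium, and it serves as a proxy for the rate of glycolysis. Samples were chosen by species, and this pair of species was taken because its transcriptomes were the most distant of the series. The 4 Ssil and the 4 Sdis libraries came from cultures in synthetic complete (SC) medium with 2% glucose, 50 ml in a baffled 250 ml flask shaken at 225 rpm and 22 °C from an OD600 of 0.05, collected in log phase. Ssil was collected after 18 h and Sdis after 15 h, so species and hour of collection cannot be told apart. The other species, *Sat. mendoncae* (Smen, low ECAR) and *Sat. hagleri* (Shag, rapid ECAR), appear below as points of reference and to define a class of abundant orthogroups.

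Glycolysis turns 1 molecule of glucose into pyruvate through a chain of cytosolic enzymes, after hexose transporters have let the sugar into the cell. In yeasts that ferment in the presence of oxygen, pyruvate is decarboxylated to acetaldehyde, which alcohol dehydrogenase reduces to ethanol. In *S. cerevisiae*, glycolytic enzymes are among the most abundant proteins of the cell, and their mRNAs are among the most abundant transcripts.

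Levels are given as transcripts per 1000000 (TPM) of an orthogroup, which is a set of genes that descend from 1 ancestral gene. The counts of the genes of an orthogroup were summed and divided by their summed length, and the values of a library add up to 1000000. The table held 5029 orthogroups, of which 4611 had a value in Ssil, 4812 in Sdis and 4492 in both. Of these 4492, 87 stayed below a mean of 5 TPM over the 8 libraries and 4405 were tested. Only the orthogroups of 10 genes could be given a name, and the rest were identified by their orthogroup number only. Ssil libraries held 6196684 to 11817386 counts in genes and Sdis libraries 9748544 to 12518835. Reads outside annotated genes made up 3.71% to 16.3% of an Ssil library and 2.50% to 9.20% of an Sdis library. Ssil replicate 4 was both the shallowest library and the one with the most reads outside genes. Replicates were close to each other, with a median SD of log2(TPM + 1) within a species of 0.09 in Ssil and 0.15 in Sdis over the tested orthogroups.

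The distance for which the pair was taken is given here as a description. Across the 4305 orthogroups with a value in all 4 species, Spearman's rho between the mean TPM of Ssil and Sdis was 0.597, the lowest of the 6 species pairs. The other pairs lay between 0.68 and 0.89. These are correlations across genes, which are not independent replicates.

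In TPM, 3143 of the 4405 orthogroups were higher in Ssil (71.4%) and 899 were lower (20.4%) at an adjusted p of 0.05 (limma on log2(TPM + 1), Benjamini-Hochberg adjustment over all tested). The typical orthogroup was thus higher in Ssil: the median difference, Ssil minus Sdis, was 1.08 on the log2 scale, or 2.11-fold. All 4 Ssil libraries lay above all 4 Sdis libraries for 3069 orthogroups (69.7%) and below them for 841 (19.1%). Because TPM are shares of a fixed total, a second fit took the differences relative to the median orthogroup. For this fit each library was rescaled by the median, over orthogroups, of its ratios to the geometric mean of the 8 libraries. The rescaling factors were 1.43 to 1.47 for Ssil and 0.642 to 0.75 for Sdis libraries. Relative to the median, 1925 orthogroups were higher in Ssil (43.7%) and 1930 were lower (43.8%). At least 2-fold relative to the median, 1009 orthogroups were higher (22.9%) and 1111 were lower (25.2%). So on either scale most transcripts differed between the species, and the direction for orthogroups near the middle depended on the scale. Below, shares and counts are in TPM unless the text says that they are relative to the median. The differences of the named genes between Ssil and Sdis are given on both scales.

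**Figure D1:**
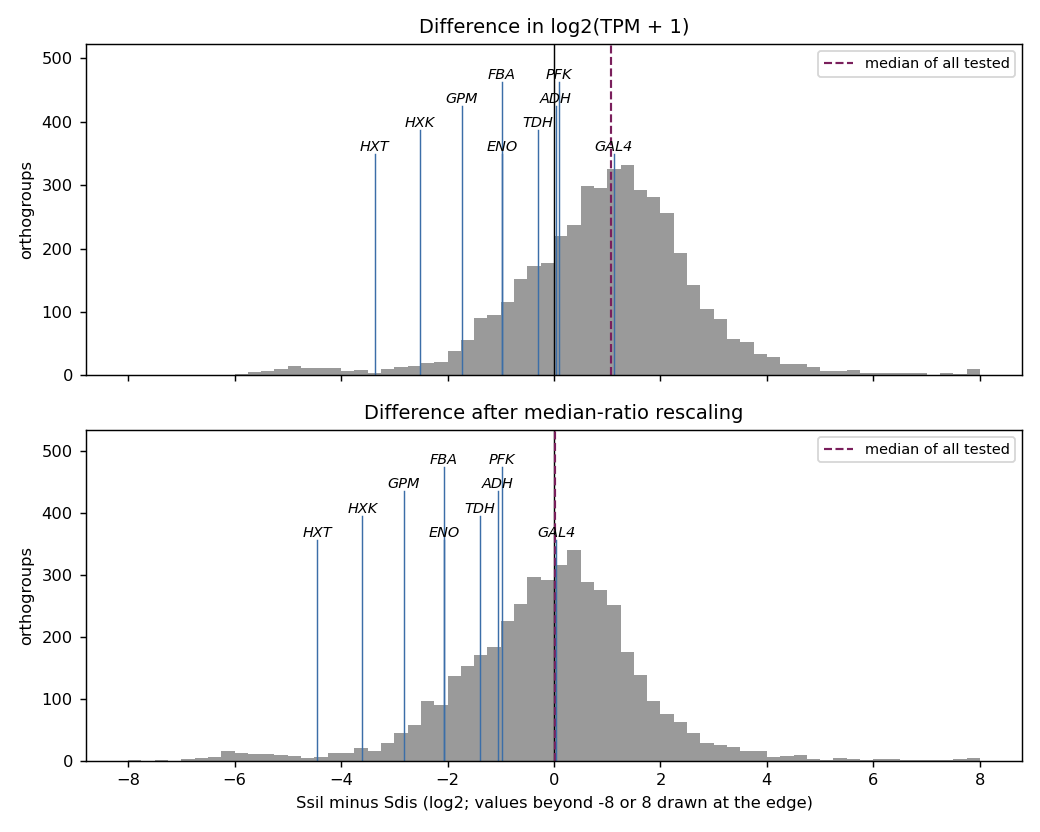
Distribution of the difference Ssil minus Sdis over the 4405 tested orthogroups, in log2(TPM + 1) (top) and after rescaling to the median orthogroup (bottom); the y axis counts orthogroups, the dashed line is the median of all tested and blue lines mark the 9 named genes with a value in both species. The median lies at 1.08 in TPM and near 0 after rescaling, HXT and HXK lie far to the left in both panels, and a small separate hump lies left of -4 in TPM.

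The transcripts were distributed differently over the range of abundance. The 100 most abundant orthogroups of a library held 41.0% to 42.4% of its TPM in Ssil and 54.4% to 56.1% in Sdis. From 180 to 199 orthogroups were needed to reach 50% of the TPM in Ssil libraries, against 81 to 85 in Sdis libraries. The order was the other way round at the very top. The 10 most abundant orthogroups held 17.2% to 17.6% in Ssil and 12.2% to 13.1% in Sdis, and the first alone held 4.02% to 4.21% in Ssil and 2.98% to 3.33% in Sdis. For each of these 4 measures the libraries of the 2 species did not overlap (exact two-sided permutation test, p = 0.0286, the smallest that 4 against 4 libraries allow, and 0.0286 after adjustment over the 4). As shares of the counts in genes in place of TPM, the gaps kept their direction but changed in size. The first gene then held 6.31% to 6.81% in Ssil and 3.32% to 3.62% in Sdis, the first 10 held 15.2% to 16.6% and 13.4% to 14.8%, and the first 100 held 36.5% to 38.7% and 44.9% to 47.7%. The first by counts in Ssil, gene g002341, has no TPM value.

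**Figure D2:**
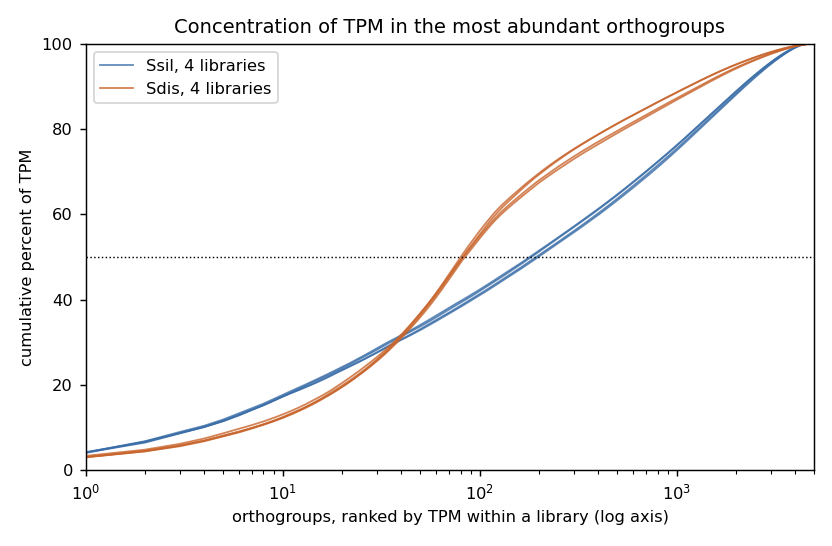
Cumulative percent of TPM against the rank of orthogroups by TPM within each library (log axis), with 1 line for each of the 4 Ssil and 4 Sdis libraries. The Ssil lines start higher, with 17.2% to 17.6% in the first 10 orthogroups, cross the Sdis lines and reach the dotted 50% line at 180 to 199 orthogroups, against 81 to 85 in Sdis.

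The most abundant orthogroup of Ssil has no name in the sources used here. It is a single gene of 119 codons in Ssil and 115 codons in Sdis. Its level was 40236 to 42063 TPM in Ssil libraries and 13804 to 14924 TPM in Sdis libraries. In Sdis the first place was held by *TDH*, glyceraldehyde-3-phosphate dehydrogenase, which ranked second in every Ssil library. Of the 10 orthogroups with the highest means in each species, 2 were shared, and of the 100 highest, 19 were shared.

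To see which abundant transcripts differed, orthogroups were taken that had a mean of at least 1000 TPM in both Smen and Shag, species that are not in the comparison. This class and the 8-fold limit used within it were chosen after the values had been seen, so they carry no test of their own. The choice is also not neutral between the 2 species. Levels in Smen and Shag were closer to those in Sdis (Spearman's rho 0.788 and 0.890) than to those in Ssil (0.680 and 0.697). A class abundant in Smen and Shag can thus favour orthogroups that are lower in Ssil. Of the orthogroups in this class, 148 were tested. In TPM, 108 of the 148 (73%) were lower in Ssil, against 20.4% of all tested, and 34 were higher, against 71.4% of all tested. Their median difference was -2.87 in TPM and -3.95 relative to the median, against 1.08 and 0.01 over all tested.

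The differences of the 148 were sparse just above the 8-fold limit, with 10 between -3 and -1.5 in TPM, but left no empty gap there. In 74 of the 148 (50%) the level in Ssil was at least 8-fold lower than in Sdis, a size of difference reached by 103 of all 4405 tested orthogroups (2.34%). Within these 74 the median difference was -4.65 in TPM, or 25.0-fold lower, and -5.73 relative to the median, and in TPM the quartiles were 18.4-fold and 32.3-fold lower. The members nearest to the limit were at -3.02 inside it and -2.72 outside it. The mean level of the 74 was 50.0 to 610 TPM in Ssil with a median of 179 TPM, against 1530 to 12024 TPM in Sdis with a median of 4757 TPM. Their median was 3258 TPM in Smen and 3373 TPM in Shag, where at least 1000 TPM was asked of every member. Levels in all 4 species took part in the choice of the 74, so these values describe them and test nothing.

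Summed over the 74 orthogroups, Ssil replicates 1 to 4 had 1.32%, 1.41%, 1.86% and 1.88% of their TPM, against 36.7%, 37.6%, 36.6% and 38.3% in Sdis replicates 1 to 4. As shares of the counts in genes, which take no account of length, the sums were 0.71% to 0.979% in Ssil and 22.1% to 23.7% in Sdis. In Smen libraries the 74 held 23.5% to 24.0% of the TPM, and in Shag libraries 16.4% to 32.6%.

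These transcripts were short, as abundant transcripts were in general. Their median coding length was 155.5 codons in Ssil and 162 codons in Sdis, against 415 and 423 codons over all tested orthogroups. That is 37.5% and 38.3% of the median of all tested, where the other 74 abundant orthogroups were at 68.9% and 57.9%. The share that was at least 8-fold lower in Ssil was highest among abundant orthogroups of more than 100 and up to 200 codons in Sdis, with 41 of 60, and lowest among those above 500 codons, with 3 of 14, and those of more than 300 and up to 500 codons, with 6 of 26. Gene number was the same and coding length similar for most of them. Of the 74, 69 had 1 gene in each species, and for 54 of these the coding lengths in the 2 species were within 2 codons of each other. The median difference of those 54 was -4.65. Over all 74, coding length differed by more than 2 codons in 19. No source used here names any of the 74, and no function is given to them.

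**Figure D3:**
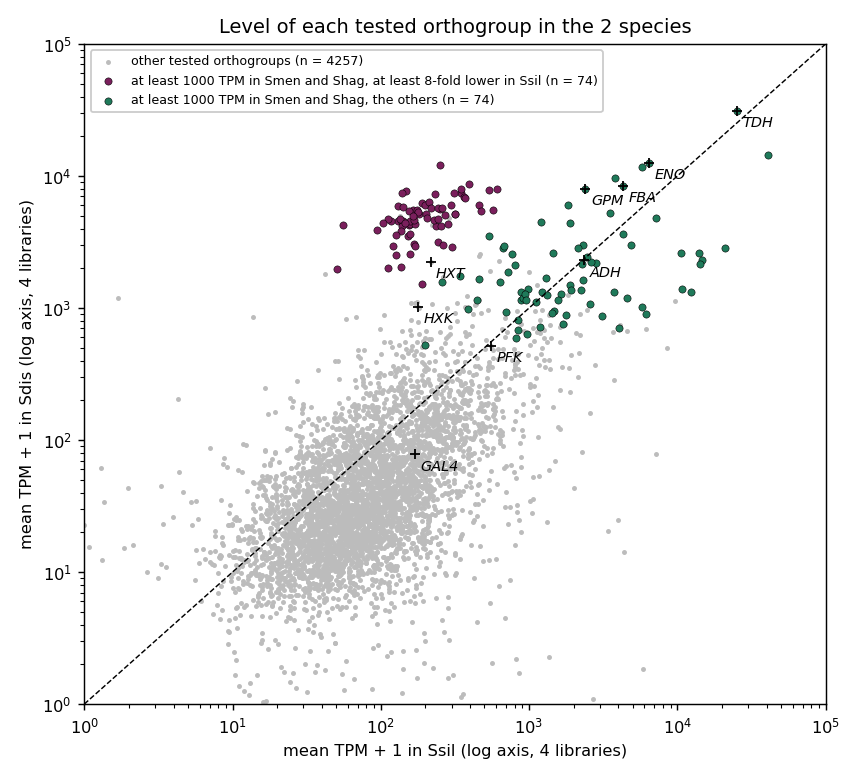
Mean TPM + 1 of each tested orthogroup in Ssil (x axis) and Sdis (y axis), both log axes, means of 4 libraries; grey points are the other 4257 tested orthogroups, and the dashed line marks equal levels. The 74 purple points, abundant in Smen and Shag and at least 8-fold lower in Ssil, lie at 50.0 to 610 TPM in Ssil and 1530 to 12024 TPM in Sdis, while the other 74 abundant orthogroups (green) lie around the line in TPM.

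The other 74 abundant orthogroups were spread around equality in TPM, with a median difference of 0.04, but were centred lower in Ssil relative to the median, at -1.05. Over all tested, the median differences were 1.08 and 0.01, so on both scales these 74 were centred below the typical orthogroup. By at least 2-fold, 19 of them were lower in Ssil and 17 were higher in TPM, against 38 lower and 9 higher relative to the median. Of all 4405 tested, 449 were called at least 2-fold lower and 2290 at least 2-fold higher in TPM. Relative to the median, 1111 of all tested were lower (25.2%) and 1009 higher (22.9%) by that limit. At the upper end, 10 were at least 4-fold higher in Ssil in TPM. They are 6.76% of the 148, against 24.1% of all tested orthogroups. Their differences relative to the median were 0.95 to 2.13, with 9 at least 2-fold and 1 at least 4-fold higher. Their means were 4065 to 21026 TPM in Ssil and 700 to 2869 TPM in Sdis. Together they held 11.3% to 11.6% of the TPM in Ssil libraries and 1.74% to 1.83% in Sdis libraries, and 7 of them were among the 10 most abundant orthogroups of Ssil.

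With the 74 low orthogroups at under 2% of the TPM, the rest of the transcriptome took a larger share in Ssil. The orthogroups outside the abundant class held 68.2% to 68.9% of the TPM in Ssil libraries and 39.6% to 41.6% in Sdis libraries. When the abundant class was left out and TPM were scaled again to the same total, 2250 orthogroups were higher in Ssil and 1466 were lower, out of 4257.

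**Figure D4:**
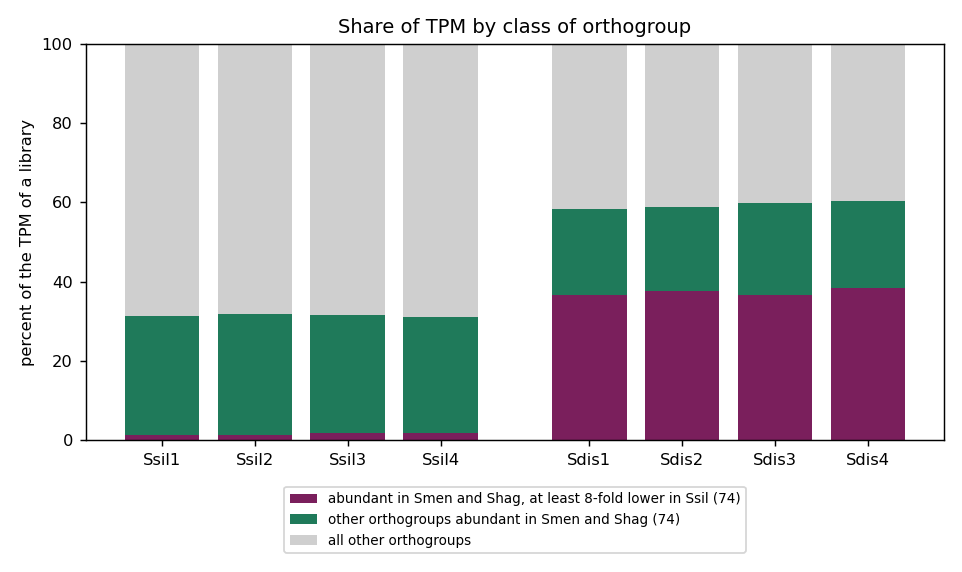
Percent of the TPM of each library in 3 classes of orthogroup, as stacked bars, with the 4 Ssil libraries on the left and the 4 Sdis libraries on the right. The purple class, abundant in Smen and Shag and at least 8-fold lower in Ssil, takes 1.32% to 1.88% in Ssil and 36.6% to 38.3% in Sdis, and all orthogroups outside the abundant class take 68.2% to 68.9% and 39.6% to 41.6%.

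The study asks how glycolytic gene expression differs between rapid and low ECAR species, and 10 genes of sugar uptake, glycolysis, fermentation and their regulation could be followed. *PGI*, *PGK*, *PYK* and *PDC* are not analysed here because the sources used here do not tie them to gene numbers. Of the 8 orthogroups of uptake, glycolysis and fermentation that had a value in both species, 6 were lower in Ssil in TPM (20.4% of all tested were), and the other two, *PFK* and *ADH*, did not pass the test. Relative to the median all 8 were lower (43.8% of all tested were). Their median difference was -0.98 in TPM and -2.06 relative to the median, against 1.08 and 0.01 over all tested. The 8 together held 3.77% to 4.53% of the TPM in Ssil libraries and 6.32% to 7.09% in Sdis libraries. The sources name these genes for predicted binding sites in their promoters, so they are not a neutral sample of the pathway.

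**Figure D5:**
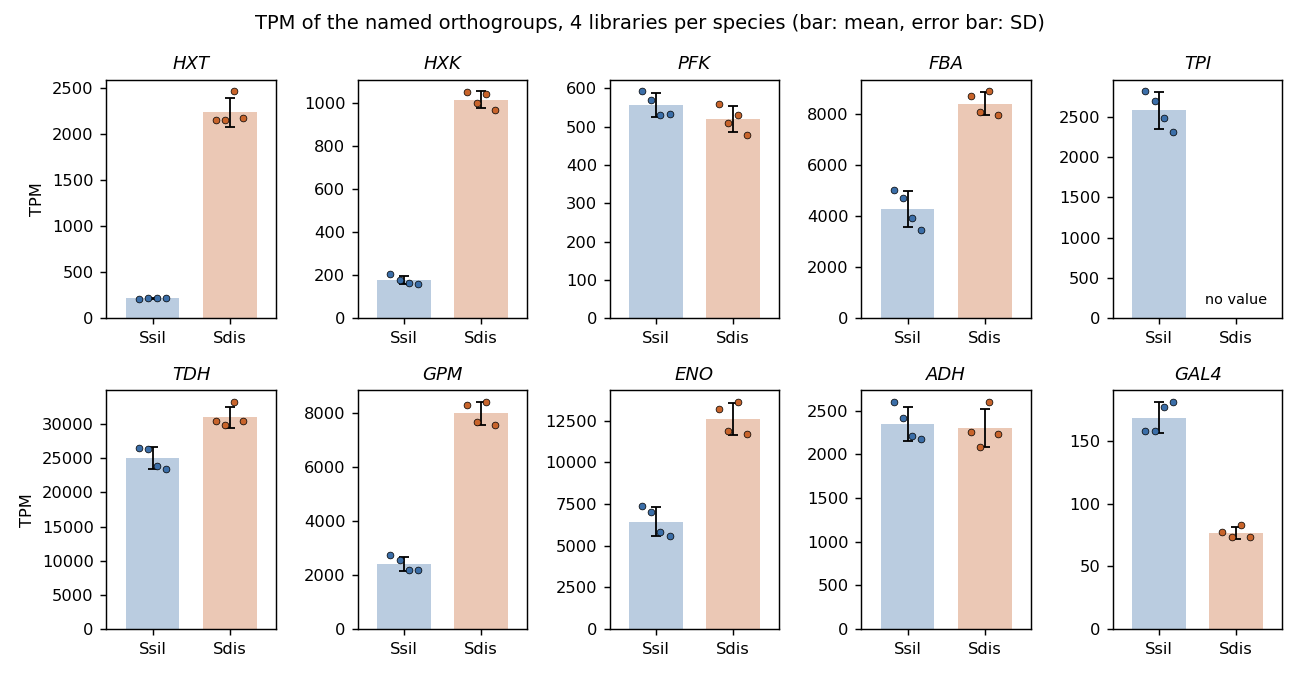
TPM of the 10 named orthogroups in Ssil (left, blue) and Sdis (right, orange), each panel with its own y axis from 0; points are the 4 libraries, bars the means and error bars the SD. HXT and HXK show the widest gaps, PFK and ADH overlap, GAL4 is higher in Ssil, and TPI has no value in Sdis.

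The largest differences among the named genes in TPM were in the uptake of sugar and its first step, *HXT* and *HXK*. *HXT*, the hexose transporter orthogroup, had 207, 222, 215 and 218 TPM in Ssil replicates 1 to 4, against 2153, 2150, 2469 and 2177 TPM in Sdis replicates 1 to 4. No Ssil library came near the lowest Sdis library. The difference was -3.37 ± 0.06 in TPM (SE; limma, adjusted p = 6.44e-12), or 10.3-fold lower, and -4.45 ± 0.10 relative to the median.

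The *HXT* orthogroup holds 2 genes in Ssil and 1 gene of 530 codons in Sdis, and TPM divides by the summed length, which is 1121 codons in Ssil. The 2 Ssil genes were used very unequally. Gene g003770 carried 98.9% to 99.1% of the counts, and gene g002846 carried 0.863% to 1.15%. In counts per 1000000 counts in genes (CPM), the Ssil gene g003770 had 624 ± 18.4 CPM and g002846 had 6.11 ± 0.83 CPM, against 3921 ± 220 CPM for the single Sdis gene g001545 (SD, n = 4 each). Without division by length the difference of the orthogroup was -2.63, or smaller than in TPM by more than 1.5-fold, with the same call. The order of *HXT* and *HXK* then turned, since *HXK* was at -2.85. Without division by length and relative to the median, *HXT* was at -3.35 and *HXK* at -3.57.

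*HXK*, hexokinase, phosphorylates the imported glucose. It had 205, 176, 165 and 161 TPM in Ssil replicates 1 to 4, against 1051, 1000, 1040 and 964 TPM in Sdis replicates 1 to 4. The species were clearly separated and the Ssil values were all near those of *HXT*. The difference was -2.52 ± 0.08 in TPM (SE; limma, adjusted p = 1.64e-10), or 5.73-fold lower, and -3.60 ± 0.09 relative to the median. The gene had 473 codons in Ssil and 469 codons in Sdis.

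*PFK*, phosphofructokinase, catalyses the committed step of glycolysis. Its levels were 593, 570, 529 and 532 TPM in Ssil replicates 1 to 4, against 559, 509, 529 and 478 TPM in Sdis replicates 1 to 4. The 2 species overlapped. The difference was 0.10 ± 0.07 in TPM (SE; limma, adjusted p = 0.18), which did not pass the test, and -0.98 ± 0.08 relative to the median (limma, adjusted p = 1.97e-07), a direction that was lost with quantile normalization (0.03, adjusted p = 0.662 by limma).

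The orthogroup has 2 *PFK* genes in each species, and in *S. cerevisiae* the enzyme is built from 2 kinds of subunit. The lesser gene, g000579, carried 43.2% to 46.8% of the *PFK* counts in Ssil libraries, and the lesser gene in Sdis, g002074, carried 44.8% to 48.2%. The shares of the lesser gene overlapped between the species. The 2 genes together had 2775 ± 151 CPM in Ssil and 3325 ± 187 CPM in Sdis (SD, n = 4 each).

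*HXK* and *PFK* were thus in a different proportion in the 2 species. *HXK* was at 30.2% to 34.5% of the TPM of *PFK* in Ssil libraries, against 188% to 202% in Sdis libraries. Both values are levels per length within a library, so they do not depend on the scaling. *HXK* is 1 gene in each species. The counts of the 2 *PFK* genes were divided by their summed length, 1914 codons in Ssil and 1937 codons in Sdis. The TPM of *PFK* is thus an average over its 2 genes and not their sum.

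*FBA*, aldolase, splits fructose-1,6-bisphosphate. It had 5006, 4724, 3940 and 3471 TPM in Ssil replicates 1 to 4, against 8709, 8057, 8889 and 7955 TPM in Sdis replicates 1 to 4. The highest Ssil library was well below the lowest Sdis library. The difference was -0.98 ± 0.11 in TPM (SE; limma, adjusted p = 7.46e-06), or 1.98-fold lower, and -2.07 ± 0.14 relative to the median. The gene had 359 codons in both species.

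*TPI*, triosephosphate isomerase, which interconverts the 2 products of aldolase, has no value in Sdis and was not tested. Its level was 2822, 2703, 2489 and 2314 TPM in Ssil replicates 1 to 4, ranks 37 to 46 of a library. The same orthogroup averaged 2441 ± 94.1 TPM in Smen and 5829 ± 1113 TPM in Shag (SD, n = 4 each). The missing value says only that no Sdis gene was placed in this orthogroup.

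*TDH* was the most abundant of the named genes. It had 26576, 26378, 23913 and 23404 TPM in Ssil replicates 1 to 4, against 30424, 29822, 33297 and 30481 TPM in Sdis replicates 1 to 4. The species did not overlap, but the gap was the smallest among the genes that passed the test in TPM. The difference was -0.31 ± 0.08 in TPM (SE; limma, adjusted p = 0.00521), or 1.24-fold lower, and -1.39 ± 0.14 relative to the median.

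*GPM*, phosphoglycerate mutase, was lower by more than *TDH* and *ENO*, the other genes of lower glycolysis analysed here. Its levels were 2717, 2537, 2174 and 2172 TPM in Ssil replicates 1 to 4, against 8279, 7652, 8402 and 7557 TPM in Sdis replicates 1 to 4. The difference was -1.74 ± 0.09 in TPM (SE; limma, adjusted p = 6.57e-09), or 3.33-fold lower, and -2.82 ± 0.12 relative to the median. *GPM* was at 36.1% to 39.0% of the TPM of *ENO* in Ssil libraries and at 61.7% to 64.7% in Sdis libraries, ranges that did not overlap.

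*ENO*, enolase, makes phosphoenolpyruvate. It had 7390, 7027, 5796 and 5565 TPM in Ssil replicates 1 to 4, against 13213, 11882, 13628 and 11680 TPM in Sdis replicates 1 to 4. All Ssil libraries were below all Sdis libraries. The difference was -0.97 ± 0.11 in TPM (SE; limma, adjusted p = 4.98e-06), or 1.97-fold lower, and -2.06 ± 0.14 relative to the median.

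*ADH*, alcohol dehydrogenase, the last step to ethanol, overlapped between the species in TPM. Its levels were 2594, 2416, 2213 and 2178 TPM in Ssil replicates 1 to 4, against 2256, 2087, 2600 and 2237 TPM in Sdis replicates 1 to 4. The Sdis range enclosed all Ssil libraries and reached below and above them. The difference was 0.04 ± 0.09 in TPM (SE; limma, adjusted p = 0.7) and -1.05 ± 0.12 relative to the median (limma, adjusted p = 5.29e-06), while quantile normalization gave 1.02 (adjusted p = 1.59e-08 by limma), so the direction depended on the scaling.

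Each species has 3 *ADH* genes in the orthogroup, and 1 of them made up nearly the whole. Gene g000805 carried 98.1% to 98.4% of the *ADH* counts in Ssil libraries, and gene g003328 carried 98.6% to 99.0% in Sdis libraries. The other Ssil genes, g004748 and g003490, had 90.3 ± 8.80 and 26.3 ± 2.40 CPM, and the other Sdis genes, g003257 and g000155, had 94.4 ± 13.8 and 0.889 ± 0.384 CPM (SD, n = 4 each). Which minor gene of one species corresponds to which of the other was not analysed here.

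*GAL4* encodes a transcription factor that in *S. cerevisiae* switches on the genes of galactose use. The study describes this role as derived and limited to the order of *S. cerevisiae*. It reports that *Sat. dispora* without *GAL4* consumed less glucose. *GAL4* had 159, 158, 177 and 182 TPM in Ssil replicates 1 to 4, against 77.6, 73.3, 83.5 and 73.6 TPM in Sdis replicates 1 to 4. The lowest Ssil library was above the highest Sdis library. The difference was 1.12 ± 0.07 in TPM (SE; limma, adjusted p = 6.51e-08), or 2.18-fold higher, which is close to that of the median orthogroup. Relative to the median it was 0.05 ± 0.09 (limma, adjusted p = 0.637), whereas quantile normalization gave 0.26 (adjusted p = 0.00771 by limma).

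In exact two-sided permutation tests of the mean TPM, 7 of the 9 named genes with a value in both species reached p = 0.0286, the smallest that 4 against 4 libraries allow, which is 0.0367 after adjustment over the 9. The exceptions in this exact test were *PFK*, with p = 0.143, and *ADH*, with p = 0.771. The smallest p is reached where the 4 and 4 libraries do not overlap. Over all tested orthogroups, Ssil lay wholly above Sdis in 69.7% and wholly below in 19.1%. The count of 7 is thus not particular to the named genes.

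The values in Smen and Shag set the order of levels for these genes. *HXT* averaged 714 ± 35.6 TPM in Smen and 2435 ± 159 TPM in Shag, and *HXK* averaged 300 ± 15.6 TPM in Smen and 1296 ± 120 TPM in Shag (SD, n = 4 each). Ssil, at 216 ± 6.38 TPM for *HXT* and 177 ± 19.6 TPM for *HXK*, was thus the lowest of the 4 species for both. Smen was the lowest for 4 others. It averaged 190 ± 5.34 TPM for *PFK*, 1715 ± 66.9 TPM for *FBA*, 18620 ± 914 TPM for *TDH* and 371 ± 26.0 TPM for *ADH*. Ssil averaged 556 ± 30.7, 4285 ± 705, 25068 ± 1643 and 2350 ± 193 TPM for the same genes. For *GPM*, Ssil with 2400 ± 272 TPM and Smen with 2291 ± 147 TPM did not differ beyond their spread, nor did they for *ENO*, with 6444 ± 899 and 6544 ± 230 TPM.

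The widest gaps of all were in orthogroups without a name. By the rule for naming them (called in the same direction on both scales, no overlap of libraries, a mean of at least 50 TPM in the higher species, largest difference relative to the median), 2 higher and 2 lower orthogroups are given. No permutation test is given for them, because the rule asks that the libraries do not overlap. The rule also asks for a limma call on both scales and for the largest differences. The limma adjusted p-values below were therefore bound to be small, and they describe the gaps without testing them. OG0000556, 1 gene of 268 codons in both species, had 5277, 5503, 5909 and 6734 TPM in Ssil replicates 1 to 4, against 0.541 to 1.02 TPM in Sdis libraries. In Sdis that level rested on 6 to 10 counts per library, against 29242 to 48740 counts in Ssil libraries. The difference was 10.81 ± 0.12 relative to the median (SE; limma, adjusted p = 2.42e-14), which understates the ratio because 1 was added to each TPM before the logarithm.

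OG0000132 had 2781, 2746, 2676 and 2627 TPM in Ssil replicates 1 to 4, against 0.0594 to 0.182 TPM in Sdis libraries. Its difference was 10.67 ± 0.07 relative to the median (SE; limma, adjusted p = 4.98e-16). In the other direction, OG0000097 had 0.35 to 1.10 TPM in Ssil libraries, against 1208, 1165, 1201 and 1213 TPM in Sdis replicates 1 to 4. Its difference was -10.22 ± 0.11 relative to the median (SE; limma, adjusted p = 1.39e-14). The levels of OG0000132 in Sdis and OG0000097 in Ssil are too low to give a fold.

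OG0000255 is the member of the 74 abundant orthogroups with the widest gap. It had 37.0, 45.4, 67.3 and 68.9 TPM in Ssil replicates 1 to 4, against 4467, 4289, 4052 and 4273 TPM in Sdis replicates 1 to 4, and 4517 ± 126 TPM in Smen (SD, n = 4). The difference was -7.38 ± 0.17 relative to the median (SE; limma, adjusted p = 3.75e-12). Its coding length was 168 codons in Ssil and 88 codons in Sdis. Without division by length the difference was -5.69, against -6.31 in TPM. Whether its gap is also the widest of the 74 without division by length was not examined.

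Few orthogroups were near silent in one species and well expressed in the other. There were 15 with a mean of at least 50 TPM in Ssil and under 1 TPM in Sdis, out of 3002 with at least 50 TPM in Ssil and a value in both species. The reverse was found for 2 out of 1749. With the same limits on the values rescaled to the median, there were 8 out of 2339 and 3 out of 2209. The 15 reached 53.9 to 5856 TPM in Ssil. Of these 15, 5 also had at least 50 TPM in Smen and 2 did in Shag.

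Orthogroups with a value in only 1 of the 2 species are described apart and were not tested. No value means that no gene of that species was placed in the orthogroup, which does not show that the species lacks the gene. Of 119 orthogroups with a value in Ssil only, 117 were above 0, 101 had a mean of at least 5 TPM and 54 of at least 50 TPM. Of 320 with a value in Sdis only, 317 were above 0, 249 had at least 5 TPM and 82 at least 50 TPM. The Ssil group held 1.44% to 1.52% of the TPM of its libraries and the Sdis group 3.83% to 3.89%. The 2 groups differed in where else they occurred. Of the 119 in Ssil, 94 had a value in Smen and 44 in Shag, and of the 320 in Sdis, 154 had a value in Smen and 290 in Shag. Neither Smen nor Shag had a value for 16 of the Ssil group and 21 of the Sdis group.

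The most abundant orthogroup with a value in Ssil only was that of *TPI*. The most abundant with a value in Sdis only, OG0004477, singled out after its values were seen, had 6157, 6432, 7126 and 6446 TPM in Sdis replicates 1 to 4. It averaged 7950 TPM in Shag and 31308 TPM in Smen, so among the 4 species it was without a value in Ssil alone. In Ssil the gene with the most counts, g002341, belonged to no linked orthogroup. It took 6.73%, 6.81%, 6.42% and 6.31% of the counts in genes in Ssil replicates 1 to 4, or 391074 to 779000 counts, and it had no TPM value. Nothing in the files ties this gene to any orthogroup.

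Gene number differed in few of the orthogroups to which genes could be tied. Only single genes, pairs and triples of genes with counts were searched, so orthogroups with more expressed genes are not among them. Genes could be tied to 4413 of the 4492 orthogroups with a value in both species, and 4264 of these (96.6%) had 1 gene in each species. More genes were found in Ssil for 77 orthogroups and in Sdis for 27. The median difference was 0.91 in TPM and -0.16 relative to the median for the tested orthogroups with more genes in Ssil (n = 76). It was 0.74 and -0.33 for those with more genes in Sdis (n = 27), and 1.08 and 0.02 for those with 1 gene in each (n = 4219). Where each species had 1 gene, the median coding length was 407 codons in Ssil and 416 codons in Sdis, and the lengths were within 5% of each other for 2798 orthogroups. Among the 2774 of these that were tested, 1848 were higher in Ssil in TPM and 678 were lower. At least 2-fold relative to the median, 500 were higher and 840 were lower. Of all 4405 tested, 3143 were higher (71.4%) and 899 lower (20.4%) in TPM. At least 2-fold relative to the median, 1009 of all tested were higher (22.9%) and 1111 lower (25.2%).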

How the data were processed

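Poly(A) RNA of 4 replicates each of Ssil and Sdis was analysed out of 16 libraries. By the study's methods, the authors ran Trimmomatic 0.30 on pairs of 150 bp reads and HISAT2 2.1.0 for alignment. HTSeq 2.0.3 counted per gene and shared ambiguous pairs in fractions, so the values per gene deposited by the authors are expected counts. The genome builds are not given in the sources used here, and positions were not analysed. The authors summed counts and gene lengths per OrthoFinder orthogroup and computed the TPM with edgeR before deposit. Reads without a gene, 4.10% to 19.0% of a library, were left out of totals.

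Orthogroups with a value in both species and a mean of at least 5 TPM were tested with limma 3.58.1 (R 4.3.3) on log2(TPM + 1) over the 8 libraries, with an intensity trend and Benjamini-Hochberg adjustment at 0.05, and again after median-ratio rescaling. A fold change on this scale understates that of low orthogroups. Genes were tied to orthogroups where counts and TPM had equal proportions over 4 libraries to within 1e-08, which gave the coding lengths and reached 4553 of 4611 orthogroups in Ssil and 4723 of 4812 in Sdis. These hold at least 99.6% of the TPM, but only 90.7% to 91.0% of the counts in Ssil. Names rest on gene numbers in the study's supplementary data. The limma fits and the linking of genes to orthogroups were tested on simulated data. Alternatives used other pseudocounts, filters, scalings, libraries, edgeR 4.0.16 and DESeq2 1.42.0, the count tools on counts rounded to whole numbers with gene length as an offset.

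The named genes were the 10 that the sources tie to gene numbers, and of the others the 2 higher and 2 lower orthogroups described in the text. The comparison, the lists and the rules were chosen with earlier results of these data known. No 2 replicates agreed within sampling noise, with a chi-square per degree of freedom of 4.43 to 40.8. Nothing in the labels ties a replicate number across species. P-values measure the spread between these libraries only.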

Additional observations from a re-analysis of the deposited data

Results flagged for a closer look

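Of 43 sets of 4 replicate values examined, 5 had a library far from the other three, where chance alone gives about 1 in 20. Sdis replicate 3 had 2469 TPM for *HXT*, against 2150 to 2177 TPM in the other Sdis libraries, all well above the Ssil libraries. Sdis replicate 2 had 0.182 TPM for OG0000132, against 0.0594 to 0.0746 TPM in the others, a difference between values that are all close to 0. Ssil replicate 2 had 17.6% of its TPM in its 10 most abundant orthogroups, against 17.2% to 17.3% in the others. Ssil replicate 4 had 6196684 counts in genes, against 10920418 to 11817386 in the others. Sdis replicate 4 had 9.20% of its reads outside genes, against 2.50% to 3.19% in the others. Without Ssil replicate 4, 3101 orthogroups were higher in Ssil in TPM and 898 were lower, and without Sdis replicate 4, 3088 and 892.

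A strong signal lay outside the TPM table. The Ssil gene g002341, which has no TPM value, took 6.57% of the counts in genes on average over the 4 Ssil libraries, with 6.31% to 6.81% in single libraries. In Sdis the gene with the most counts outside the linked orthogroups took 0.73% to 0.887%.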

How the results depend on the processing

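Scaling changed the number of orthogroups called in each direction most. In place of 3143 higher and 899 lower in TPM, quantile normalization gave 1991 and 1872, edgeR 1951 and 1876, DESeq2 1916 and 1931, and median-ratio rescaling 1925 and 1930. Without the abundant class, an alternative chosen after seeing the data, 1466 were lower. Relative to the median, a limit of 4-fold in place of 2-fold left 347 higher and 468 lower. *PFK* and *ADH*, which did not pass the test in TPM, turned round without division by length (-0.26 and -0.31), with edgeR (-0.94 and -1.02), with DESeq2 (-0.98 and -1.06) and with median-ratio rescaling (-0.98 and -1.05). Relative to the median, both turned round with quantile normalization (0.030 and 1.02), and *GAL4*, near 0, turned round without division by length (-0.0084). Leaving out 1 library, *ADH* in TPM lay between -0.013 and 0.097 and *GAL4* relative to the median between -0.0041 and 0.112. Of the 469 values of named genes and of the 2 higher and 2 lower orthogroups under alternatives, 450 kept direction and call. Those orthogroups were picked for wide, called gaps, so that their values kept direction and call is no support. The values that changed all belong to *PFK*, *ADH* and *GAL4*. Quantile normalization, edgeR and DESeq2 enter once for each scale with the same fit. The causes were not tested.

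Leaving out 1 library at a time, the 4 measures of concentration differed between the species by 0.976 to 1.09 percentage points for the first orthogroup, 4.74 to 5.02 for the first 10, -13.8 to -13.2 for the first 100 and 103 to 109 orthogroups for 50% of the TPM. With 3 against 4 libraries the exact permutation p cannot fall below 0.0571.

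Replicate numbers did not pair the libraries throughout. The correlations of same-numbered libraries' deviations from their species means were 0.202, -0.056, 0.16 and -0.0318, and 2 of the 4 Ssil libraries did not correlate best with their own number. The values 0.202 and 0.16 were the highest among all pairs of an Ssil and an Sdis library. Whether some same-numbered libraries share a batch was not tested. With the replicate number as a block, 3121 orthogroups were higher in TPM and 883 lower, and it left the counts relative to the median at 1009 and 1111.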

Other observations

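Within Ssil the libraries formed pairs. The chi-square per degree of freedom of the gene counts was 4.58 between replicates 1 and 2 and 4.43 between replicates 3 and 4, against 10.9 to 16.9 for the other pairs. In Sdis the values were 8.47 between replicates 1 and 2 and 10.1 between replicates 3 and 4, against 12.9 to 40.8 for the other pairs. The labels give no reason for such pairs. Of the 10 named genes, *HXK*, *PFK*, *FBA*, *TPI*, *TDH*, *GPM*, *ENO* and *ADH* had higher TPM in both of Ssil replicates 1 and 2 than in both of replicates 3 and 4, and *GAL4* had lower TPM. In Sdis the same held for none of 9 in the first direction and for *HXT* and *TDH* in the second. This order was noticed in the data and was not tested. The share of all tested orthogroups with the same order was not computed, so the order is not shown to be particular to these genes.

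The difference between the species changed with coding length, upward to 1000 codons and back above that. Relative to the median orthogroup, the median difference was -0.78 for 113 tested orthogroups of up to 100 codons in Sdis, -0.45 for 538 of more than 100 and up to 200 codons, 0.41 for 411 of more than 750 and up to 1000 codons, and 0.21 for 413 above 1000 codons. Outside the abundant class the same medians were -0.65, -0.33, 0.41 and 0.21.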
